A study of Homo sapiens with 24 samples.

Results

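The transcription factor p53 is switched on by DNA damage and other stress and raises a set of genes that halt the cell cycle, repair DNA or promote cell death. It also raises MDM2, the ubiquitin ligase that marks p53 itself for degradation, so the pathway carries its own brake. Mutation or loss of p53 is common in cancer, and lines without working p53 can still raise some of these genes by other routes. Here 9 p53 target genes were followed by name over 24 two-colour arrays, out of 43492 names spotted. They are CDKN1A, MDM2, ZMAT3, TP53INP1, TP53I3, SESN1, RRM2B, XPC and FDXR. They were spotted as 15 probes, of which 14 carried the name on both array designs, and the probe with the highest mean control signal stood for each gene unless stated. In hg19 the probe of CDKN1A lies at chr6:36652178-36652237, that of ZMAT3 at chr3:178742161-178742220, that of TP53I3 at chr2:24300504-24300563 and that of SESN1 at chr6:109308477-109308536. The probe of FDXR lies at chr17:72858650-72858709 and that of XPC at chr3:14187441-14187500.

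RNA of treated cells, labelled with Cy5, was set against RNA of control cells of the same line, labelled with Cy3, with 1 array for each treatment and line and no dye swap. PC3, DU145 and LNCap are prostate cancer (PCa) cell lines, A498 and 786O are renal cancer lines, and FaDu and SAS are squamous carcinoma lines of the head and neck. PC3 and DU145 received genistein, a soy isoflavone, and their controls are labelled as having no treatment, while the study's methods describe a DMSO vehicle. SAS and FaDu received wogonin, a plant flavone, against DMSO. The chemokine CXCL10 was given to 786O for 12 h or 24 h against cells labelled as having no treatment. Small interfering RNAs were transfected to knock down CAV2 in A498 and 786O, LAMB3 in FaDu and SAS, and GOLM1 in DU145 and PC3. The transfected miRNAs were miR-145 (PC3, DU145, LNCap), miR-143 (DU145, PC3), miR-27b (PC3, 786O, A498), miR-23b and miR-24 (PC3), miR-375 (FaDu) and miR-29a (SAS). The labels call the other side of each transfection only a control. By general knowledge and not by the labels, LNCap and A498 carry wild-type p53, PC3 has none, and DU145 and FaDu carry mutant p53. Reports differ for SAS and 786O, which were treated as not settled.

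The arrays lay on 3 slides of 8, and the third slide had another design than the first 2. No spot was saturated. The share of spots that the software called well above background ran from 53.2% to 67.6% for Cy3 and from 54.2% to 68.9% for Cy5. The lines carried the markers of their tissue, with KLK3 in LNCap, KRT5 and KRT14 in FaDu and SAS, and PAX8 and PAX2 in A498 and 786O. KLK3 was not well above background in PC3. The labels do not say whether arrays of one line on one slide shared control RNA. The control channels of the 3 PC3 arrays on the second slide, of miR-23b, miR-24 and miR-27b, correlated at 0.986 to 0.988. The SAS controls of si-LAMB3 and wogonin, which differ in kind, correlated at 0.986 on that slide. Such a correlation therefore cannot tell whether control RNA was shared, and ratios of one line on one slide may not be independent.

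The transfected miRNAs are shown because 7 of the treatments are defined by them. RefSeq's mature sequences are given 5′ to 3′, with the seed (bases 2 to 8), through which a miRNA pairs with its targets, in capitals. The labels name no arm, and the arm shown is the one that carried the plain name in earlier nomenclature. The 7 miRNAs had 7 different seeds.
hsa-miR-145-5p: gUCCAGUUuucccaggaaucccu
hsa-miR-143-3p: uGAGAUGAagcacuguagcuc
hsa-miR-375-3p: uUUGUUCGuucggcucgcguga
hsa-miR-29a-3p: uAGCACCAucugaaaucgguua
hsa-miR-24-3p: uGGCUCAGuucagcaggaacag
hsa-miR-23b-3p: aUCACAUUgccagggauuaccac
hsa-miR-27b-3p: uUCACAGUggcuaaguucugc

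Over the 24 arrays the 9 genes did not move as a block. The values were log2 ratios of treated to control RNA, and a gene was counted where its ratio lay at 1.0 or more from 0 with at least 1 channel well above background. Of 216 gene and array pairs 214 were measured and 23 were counted, close to the 9.42% of all probes counted over the same arrays. TP53INP1 supplied 8 of them, CDKN1A 6 and ZMAT3 3. MDM2 and RRM2B supplied none, with ratios of -0.52 to 0.70 and -0.79 to 0.57. Median ratios of the 9 genes over the arrays ran from -0.19 for RRM2B to 0.20 for CDKN1A. With 1 array for each treatment and line these size counts carry no test, and each ± beside a single ratio is the technical error given by the scanner software. With normexp background correction followed by loess, 7 pairs were counted.

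**Figure D1:**
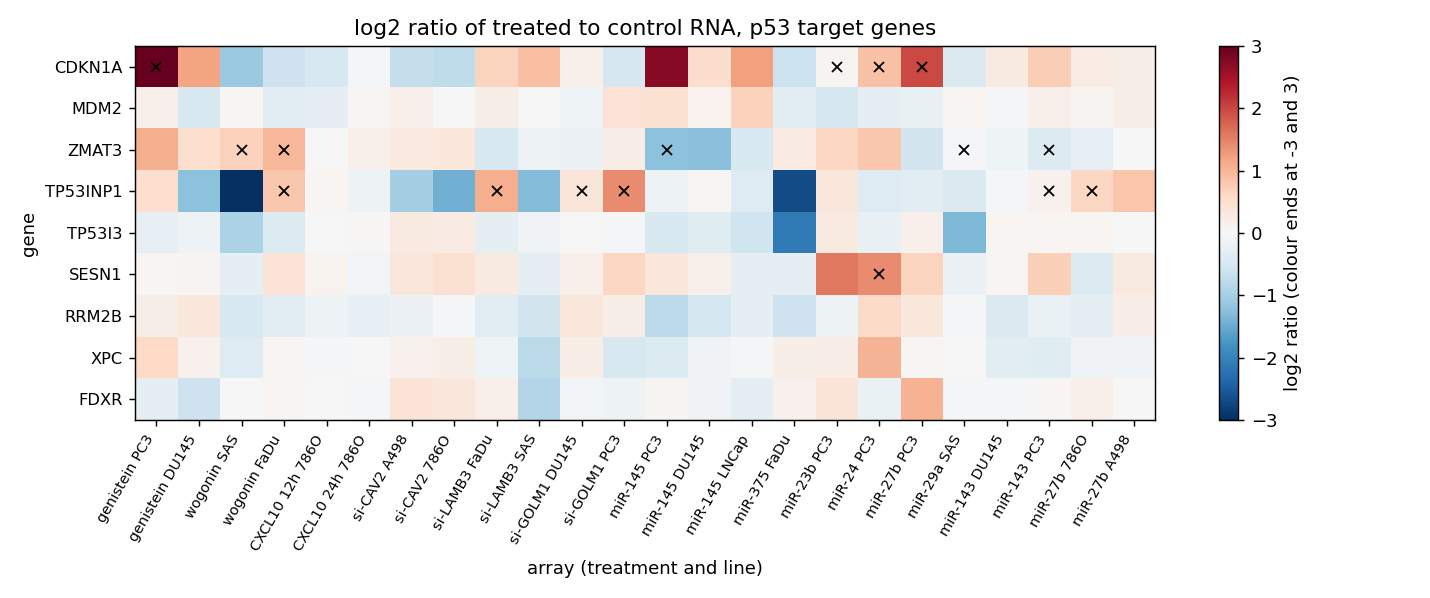
Log2 ratio of treated to control RNA (colour, ending at -3 and 3) of the brightest probe of each of the 9 genes (rows) on the 24 arrays (columns), with crosses where at least 1 channel was not well above background. CDKN1A is highest at 3.64 under genistein in PC3, and TP53INP1 is lowest at -3.08 under wogonin in SAS.

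Genistein was the treatment under which CDKN1A, the cyclin-dependent kinase inhibitor p21, rose most. PC3 gave a log2 ratio of 3.64 ± 0.41, and DU145 gave 1.18 ± 0.25. In PC3 the control channel was not well above background. Where 1 channel was dim, 2 signals were compared, the lowest well above background on that array and the dim channel's own. The fold was taken against the higher of them. Against the former it is a bound, written below as at least. Here the own signal was higher, so the 12.4-fold rise is the ratio itself and no lower limit. With normexp and loess the log2 ratio on this array was 1.67. All such bounds hold only for the processed signals and are open to dye bias, and the ratio after normexp and loess can lie below them. Over both lines the mean was 2.41 ± 0.58 (SE, n = 2 lines; limma adjusted p = 0.0187), and with normexp and loess it was 1.11 (limma adjusted p = 0.00529). The SE of such a mean rests on a spread shared by all treatments in the fit, and not on that of these 2 lines alone. ZMAT3, a zinc-finger RNA-binding protein, rose as well, with 1.07 ± 0.27 in PC3 and 0.49 ± 0.22 in DU145 (mean 0.78 ± 0.22, limma adjusted p = 0.0342). TP53INP1, a stress protein that promotes autophagy and cell death, lay at 0.50 ± 0.21 in PC3 and -1.24 ± 0.24 in DU145. FDXR, the mitochondrial ferredoxin reductase, lay at -0.27 and -0.63. MDM2 lay at 0.15 and -0.49 and did not pass the test.

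Thus 2 of 9 genes passed the limma test under genistein, where 12.6% of all 27787 probes passed. By size, 2 of 9 genes were counted in PC3, against 17.8% of all probes measured there, and 2 of 9 in DU145, against 12.5%. Without the PC3 array neither gene passed the test (CDKN1A limma adjusted p = 0.36, ZMAT3 limma adjusted p = 0.368). Neither passed with each array design fitted on its own (limma adjusted p = 0.056 and 0.0887), and ZMAT3 did not against all other treatments (limma adjusted p = 0.0668). Of 46 other p53 target genes, 6 rose and 1 fell. GDF15, a stress cytokine, had 3.89 in PC3 and 2.11 in DU145. GADD45A, a growth arrest and DNA damage gene, had 2.43 and 2.16. SESN2, a sestrin, had 2.23 and 1.42. TNFRSF10B, a death receptor for TRAIL, had 0.98 and 0.80. BTG1 and GPX1 also rose, and APAF1, the scaffold of the apoptosome, fell with -1.22 and -0.57. The median of the 46 genes was 0.13, against 0.03 for all probes tested. Among 12 regulators and relatives of p53, MDM4, a p53 inhibitor related to MDM2, rose (mean 1.01, limma adjusted p = 0.00903).

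Under miR-145 the 9 genes divided. CDKN1A had log2 ratios of 2.72 ± 0.34 in PC3, 0.52 ± 0.22 in DU145 and 1.22 ± 0.24 in LNCap. All 3 lay above 0, but the mean of 1.49 ± 0.47 (SE, n = 3 lines) missed the threshold (limma adjusted p = 0.0714). ZMAT3 fell, with -1.23 in PC3, -1.25 in DU145 and -0.46 in LNCap (mean -0.98 ± 0.18, limma adjusted p = 0.00492). With normexp and loess its mean shrank to -0.28 (limma adjusted p = 0.0234). In PC3 the treated ZMAT3 channel was not well above background, and the 2.34-fold fall is the ratio itself and no lower limit. RRM2B, a small subunit of ribonucleotide reductase that supplies nucleotides for repair, fell with -0.79, -0.53 and -0.27 (mean -0.53 ± 0.13, limma adjusted p = 0.0247). TP53I3, a quinone oxidoreductase, fell with -0.45, -0.37 and -0.60 (mean -0.47 ± 0.11, limma adjusted p = 0.0162). Set against the other treatments on the same slide, TP53I3 lay at 0.21 (limma adjusted p = 0.358), and against all other treatments at -0.16 (limma adjusted p = 0.453). RRM2B was lost in both of these (limma adjusted p = 0.178 and 0.0861), with normexp and loess (0.054) and with the median over its probes (0.0879), and its second probe did not pass (limma adjusted p = 0.336). With each design fitted on its own, ZMAT3 passed while RRM2B and TP53I3 did not (limma adjusted p = 0.0673 and 0.0931). Without PC3 none of these 3 calls was kept, with limma adjusted p = 0.0667 for ZMAT3, 0.241 for RRM2B and 0.0989 for TP53I3. RRM2B was also lost without DU145 (limma adjusted p = 0.0784), and TP53I3 without LNCap (limma adjusted p = 0.0952).

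MDM2 had its highest ratios of the series under miR-145 in LNCap, the wild-type line, at 0.70, 0.87 and 0.84 by its 3 probes that both designs name MDM2. In PC3 the same probes gave 0.45, 0.08 and 0.79, and in DU145 0.11, -0.17 and 0.31. The dimmest of them passed the test (mean 0.65, limma adjusted p = 0.00951) and the other 2 did not, so the probes disagreed. By the brightest probes, 3 of 9 genes passed under miR-145, where 9.19% of all probes passed. By size, 2 of 9 were counted in PC3, against 14.2%, 1 in DU145, against 5.66%, and 1 in LNCap, against 8.84%.

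Of the 46 other p53 targets, 6 rose and 1 fell under miR-145, where 9.19% of all probes passed. The median of the 46 was 0.09, against -0.04 for all probes. TRIM22, an antiviral gene also induced by interferon, had log2 ratios of 8.87 in PC3, 6.52 in DU145 and 5.61 in LNCap. BBC3 (PUMA), a BH3-only death protein, had 4.16, 1.73 and 2.87. PMAIP1 (NOXA), another BH3-only protein, had 3.33, 1.15 and 4.12. FAS, a death receptor, had 3.11, 1.17 and 3.27. BTG1 and RPS27L rose less, and TNFRSF10D, a decoy receptor for TRAIL, fell with -0.50, -0.99 and -1.43. Of the 12 regulators, CHEK2 and CDKN2A rose. USP7, a deubiquitinase that acts on MDM2 and p53, fell with -2.59, -1.19 and -0.52.

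Wogonin gave lower TP53I3 in both head and neck lines, with log2 ratios of -0.95 ± 0.22 in SAS and -0.42 ± 0.21 in FaDu (mean -0.69 ± 0.13, SE, n = 2 lines; limma adjusted p = 0.0124). The second TP53I3 probe gave -0.88 and -0.47. The TP53I3 mean was -0.31 against the other treatments on the slide (limma adjusted p = 0.264) and -0.39 against all other treatments (limma adjusted p = 0.143). ZMAT3 rose, with 0.70 in SAS and 0.99 in FaDu (mean 0.84 ± 0.22, limma adjusted p = 0.0409). Its control channel was not well above background in either line. The 1.62-fold and 1.98-fold rises are the ratios themselves and no lower limits. With normexp and loess the mean was 0.10 (limma adjusted p = 0.572). Against the other treatments on the slide it was 0.58 (limma adjusted p = 0.206), and against all other treatments 0.76 (limma adjusted p = 0.0877). With each design fitted on its own neither TP53I3 nor ZMAT3 passed (limma adjusted p = 0.0783 and 0.115). CDKN1A lay below 0 in both lines, with -1.10 ± 0.31 in SAS and -0.62 ± 0.29 in FaDu, without passing the test.

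The lowest ratio of all 216 was that of TP53INP1 under wogonin in SAS, at -3.08 ± 0.36. In FaDu its ratio was 0.81 ± 0.90, from a control channel not well above background (at least 1.27-fold higher). With normexp and loess the FaDu ratio was 0.12. By the test 2 of 9 genes passed under wogonin, where 5.78% of all probes passed. By size, 2 of 9 genes were counted in SAS, against 14.1%, and none in FaDu, against 11%. Without SAS neither call was kept, with limma adjusted p = 0.218 for TP53I3 and 0.156 for ZMAT3. Without FaDu ZMAT3 was lost (limma adjusted p = 0.214). Among the 46 other targets, C12orf5 (TIGAR), which lowers glycolysis, rose with 1.95 in SAS and 0.98 in FaDu. POLH, a translesion DNA polymerase, rose with 0.68 and 1.01, and BTG1 fell with -1.44 and -1.29. The median of the 46 was -0.15, against 0.04 for all probes. ATR, a DNA damage kinase, was the regulator that passed, with 0.69 and 0.47.

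**Figure D2:**
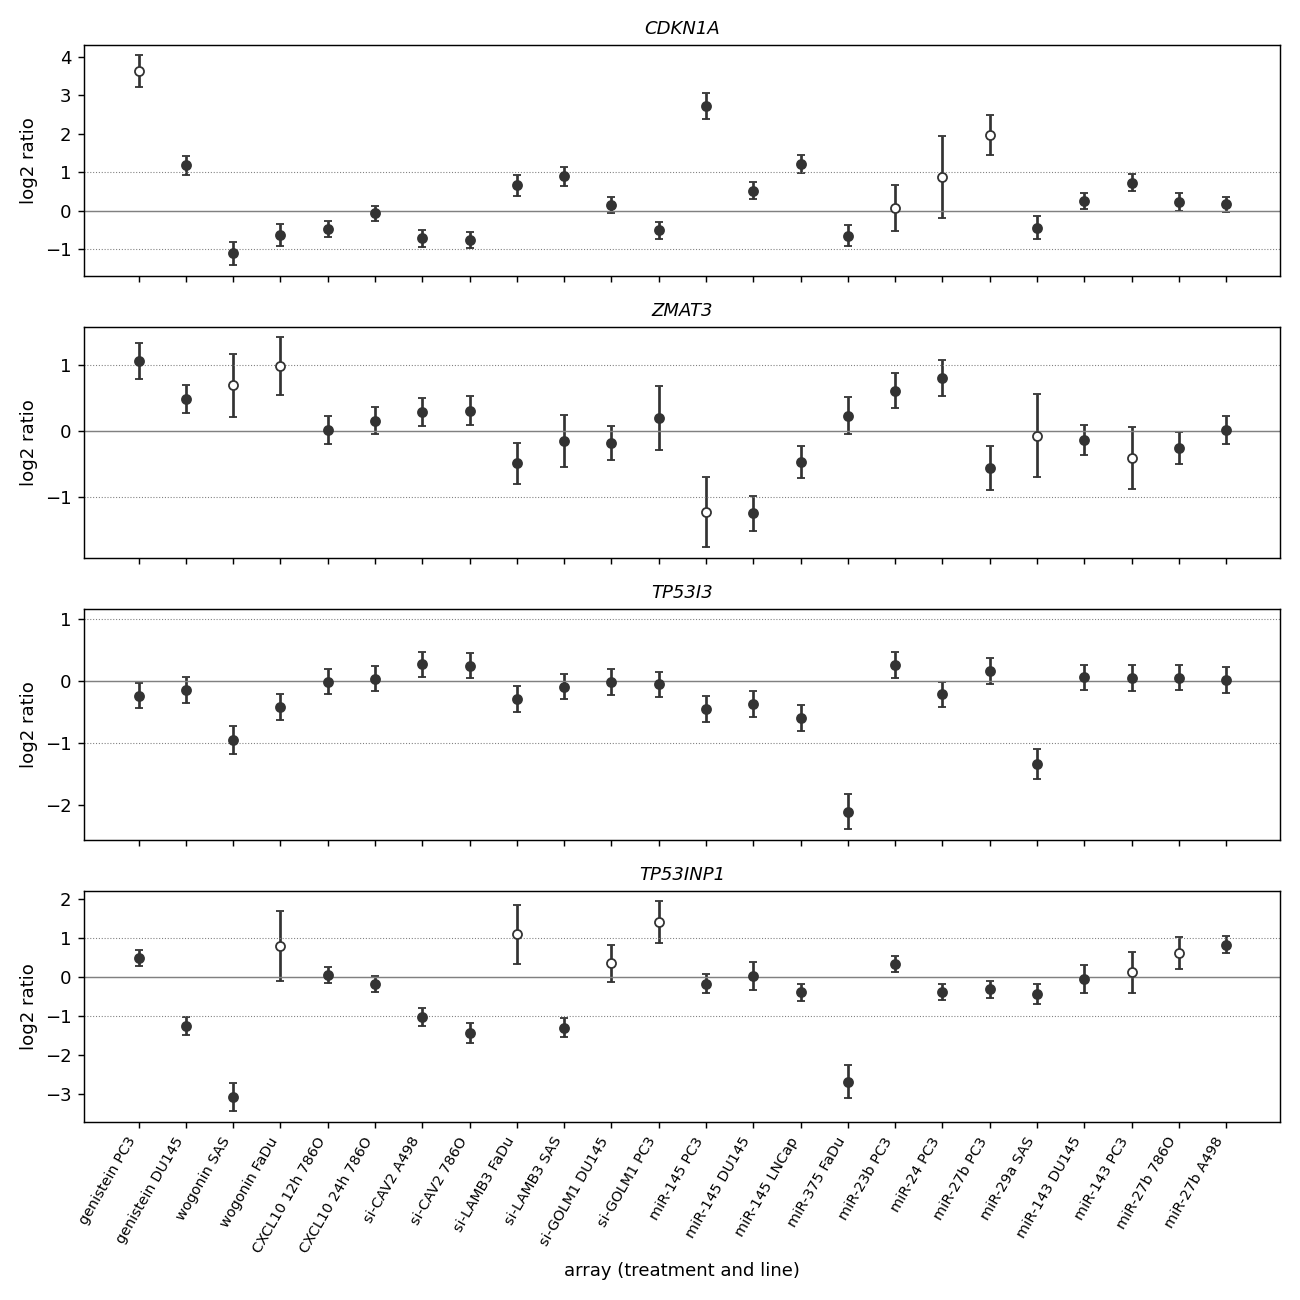
Log2 ratio of treated to control RNA of CDKN1A, ZMAT3, TP53I3 and TP53INP1 on each array, with bars for the technical error of the scanner software, open points where at least 1 channel was not well above background and dotted lines at -1 and 1. CDKN1A lies above 1 under genistein in both lines, ZMAT3 below 0 under miR-145 in all 3 lines, and TP53I3 below -1 under miR-375 and miR-29a.

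None of the 9 genes passed the limma test under the 5 other treatments given to at least 2 lines. All probes passed there at 11.4% for si-LAMB3, 1.09% for miR-27b, 0.263% for si-GOLM1, 0.212% for si-CAV2 and 0.0324% for miR-143. With shares as low as the last 4, few calls would be met among any 9 probes. Of the 46 other targets, 2 rose and 2 fell under si-LAMB3, 1 fell under miR-27b, 1 fell under si-GOLM1 and none passed under si-CAV2 or miR-143. BTG2, an antiproliferative gene, fell with -1.18 in FaDu and -1.59 in SAS after si-LAMB3. CCNG1 (cyclin G1) fell with -3.50 in PC3, -1.19 in 786O and -0.98 in A498 under miR-27b. BAX, the mitochondrial death effector, fell with -1.59 in DU145 and -1.34 in PC3 after si-GOLM1.

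After knock-down of CAV2, TP53INP1 lay at -1.02 ± 0.23 in A498 and -1.43 ± 0.26 in 786O. CDKN1A lay at -0.71 ± 0.22 and -0.75 ± 0.22. By size, 1 of 9 genes was counted in each line, against 3.18% of all probes in A498 and 2.81% in 786O. Knock-down of LAMB3 gave TP53INP1 at 1.10 ± 0.75 in FaDu, where the control channel was not well above background (at least 1.74-fold higher), and at -1.29 ± 0.25 in SAS. With normexp and loess the FaDu ratio was 0.12. FDXR and XPC, which recognises bulky DNA lesions for excision repair, lay at -0.88 and -0.80 in SAS and at 0.15 and -0.13 in FaDu. In each line 1 of 9 genes was counted, against 10.5% in FaDu and 14.8% in SAS.

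Knock-down of GOLM1 left all 9 genes within 0.36 of 0 in DU145 by their brightest probes, where 1.6% of all probes were counted. The probes that both designs name MDM2 gave -0.13, 0.52 and 0.375 there. They gave 0.43, 0.52 and 0.47 in PC3, and none of them passed the limma test. In PC3, TP53INP1 was counted at 1.41 ± 0.54, with a dim control channel (at least 1.58-fold higher), against 4.22% of all probes. With normexp and loess TP53INP1 lay at 0.31 there. CDKN1A lay at 0.15 in DU145 and -0.51 in PC3. No gene was counted under miR-143, against 4.17% in DU145 and 3% in PC3. None was counted under CXCL10 either, against 3.14% at 12 h and 3.19% at 24 h. The lowest of the 9 genes under CXCL10 was CDKN1A at 12 h, with -0.47 ± 0.21.

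The miRNAs given to a single line had some of the largest ratios, with no test. Under miR-375 in FaDu, TP53I3 lay at -2.12 ± 0.28 by both of its probes and TP53INP1 at -2.68 ± 0.42. Those were 2 of 9 genes, against 22.7% of all probes. With normexp and loess the brightest probe of TP53I3 lay at -2.06 and that of TP53INP1 at -0.62. The second TP53INP1 probe was not well above background there in either channel. TP53I3 was also counted under miR-29a in SAS, with -1.34 ± 0.24 and -1.44 ± 0.24 by its 2 probes. It was the only one of 9 genes, against 10.5% of all probes.

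In PC3, SESN1, a sestrin that restrains growth signalling through mTORC1, lay at 1.58 ± 0.31 under miR-23b and 1.43 ± 0.31 under miR-24. Its control channel was not well above background on the miR-24 array (2.69-fold higher, which is the ratio itself and no lower limit). XPC lay at 1.02 ± 0.23 under miR-24. Under miR-27b, FDXR lay at 1.05 ± 0.23 and CDKN1A at 1.97 ± 0.53, the latter from a dim control channel (at least 3.37-fold higher). With normexp and loess the log2 ratio of CDKN1A on that array was 0.37, which lies below this bound. The counts were 1 of 9 under miR-23b, against 11.4% of all probes, 2 of 8 measured under miR-24, against 26.2%, and 2 of 9 under miR-27b, against 13.9%.

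The ratios under miR-27b in the renal lines were lower. CDKN1A lay at 0.22 in 786O and 0.17 in A498, and FDXR at 0.15 and 0.00. No gene was counted in 786O, against 4.3%, or in A498, against 4.07%. On the 3 PC3 arrays of the second slide the MDM2 probe at chr12:69238891-69238950 (hg19) gave -1.21, -1.05 and -1.40 under miR-23b, miR-24 and miR-27b. The brightest MDM2 probe, at chr12:69233570-69233629, gave -0.52, -0.27 and -0.23 there. A difference between transcripts of MDM2 and a difference between probes cannot be told apart.

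The basal levels were compared between the lines by the control channel of the 16 arrays of the first 2 slides. A level is the log2 Cy3 signal minus the 75th percentile of its array, averaged over the arrays of a line, and is compared only within a gene. Both wild-type lines, LNCap and A498, lay above all 5 other lines for FDXR, MDM2, SESN1 and ZMAT3. These were 4 of 9 genes, against 5.02% of all 32936 probes. In no gene did both lie below the 5, as they did for 1554 of the 32936 probes. The mean difference was above 0 in all 9 genes, while the median difference of all probes was -0.02. None passed the limma test of wild type against the other lines (smallest adjusted p = 0.662), in which 0.0425% of all probes passed. At an unadjusted limma p under 0.05, 2 of the 9 genes passed, against 5.46% of all probes. ZMAT3 was not among the 4 genes after quantile normalization or in the Cy5 channel, nor MDM2 on the first slide alone. LNCap and A498 each rest on 1 array here. FaDu and SAS differ from both in tissue, while the prostate and renal lines among the rest share a tissue with LNCap or A498. The p53 status of SAS and of the other renal line was not settled. Tissue and p53 were not separated in this comparison.

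FDXR had levels of 5.44 in A498 and 4.68 in LNCap, and the others ran from 4.03 in FaDu down to 3.21 in 786O. The difference was 1.58 ± 0.38 (SE; limma adjusted p = 0.662, exact permutation p = 0.0952). That exact two-sided p is the smallest that 21 splits of 7 lines allow. SESN1 had 2.34 in LNCap and -0.80 in A498, against -1.91 in FaDu, -1.93 in 786O, -1.98 in SAS, -3.26 in PC3 and -3.29 in DU145. Its difference of 3.25 ± 0.88 was the largest of the 9, and LNCap stood far above A498. FaDu, SAS and 786O could not be ranked, since their arrays spread from -2.42 to -1.35.

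MDM2 had 0.14 in A498 and -0.28 in LNCap by its brightest probe, and the others ran from -0.54 in FaDu to -0.98 in PC3. The array of miR-375 in FaDu reached -0.26, just above LNCap, so the order held for the means of the lines and not for every array. Its other probes differed more, with 1.20 and 1.15 against 0.68 for the brightest, and both wild-type lines were highest by each of them. ZMAT3 had -2.01 in A498 and -2.22 in LNCap, with DU145 close behind at -2.29 and 786O at -2.33. The SD between arrays was 0.45 in PC3 (n = 5), more than the gaps between these 4 lines.

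For the other 5 genes at least 1 further line lay level with or above a wild-type line. CDKN1A was lowest in p53-null PC3 at -4.52, and 786O lay at -0.80, between A498 at -0.63 and LNCap at -1.18. TP53I3 was highest in A498 at 4.76 but low in LNCap at 1.47, below PC3, DU145, FaDu and SAS. TP53INP1 was highest in LNCap at 3.28, and PC3 at 0.00 lay above A498 at -0.84. RRM2B was highest in A498 at 1.02, with LNCap at -0.32 level with PC3 at -0.31. By its second probe both wild-type lines were highest for RRM2B, with -0.59 in A498 and -1.32 in LNCap. XPC was highest in SAS at 0.24.

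Of 46 other p53 targets, both wild-type lines were highest for 9 and lowest for none. Of all 32936 probes, both were highest for 5.02% and lowest for 1554. The 9 were SPATA18, TNFRSF10C, GDF15, BTG2, NINJ1, RPS27L, BBC3, PPM1D and FBXO22. The median difference of the 46 was 0.55, against -0.02 for all probes, and none passed the limma test, while 6 did so at an unadjusted p under 0.05, where 5.46% of all probes did. Of the 12 regulators and relatives, both were highest for 1, PPM1D, which stands on both lists, and the median difference was -0.23.

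**Figure D3:**
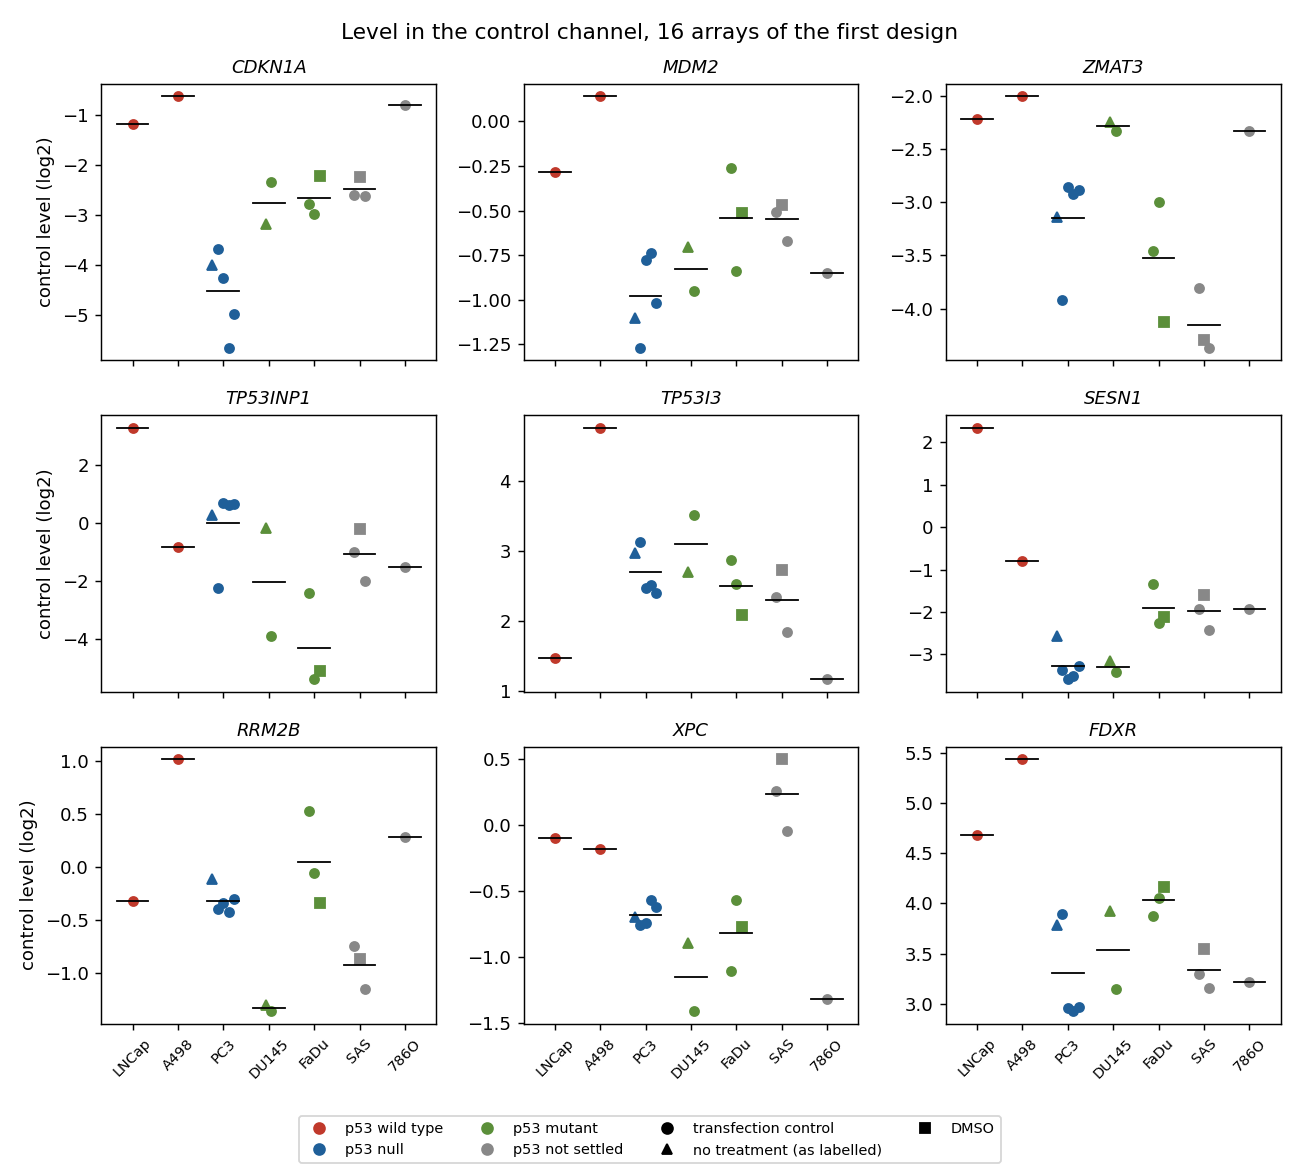
Control level (log2 Cy3 signal minus the 75th percentile of the array) of the 9 genes in each line on the 16 arrays of the first 2 slides, with colour for p53 status, shape for the kind of control and a line at the mean. LNCap and A498 lie above the means of all other lines for MDM2, ZMAT3, SESN1 and FDXR.

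The promoters were searched for the p53 decamer motif, the sequence of which p53 binds a pair, to show where a gene of this set holds it near its start. RefSeq promoter windows (GRCh38.p14) of 300 bases were at hand for 7 of the 9 genes. The motif, which reads alike on both strands, was in 1 of the 7, SESN1, and in 6.63% of 35116 windows of the same length. The 60 bases that hold it lie on the reverse strand at chr6:109009003-109009062, and the decamer is in capitals.
SESN1 promoter: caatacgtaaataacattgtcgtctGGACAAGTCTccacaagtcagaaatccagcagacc
The match is a description of letters, and its absence from the other windows says only that the letters are not there.

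Response and p53 status were compared within the 3 treatments given to a wild-type line and another line of the same tissue. These were si-CAV2 (A498 minus 786O), miR-145 (LNCap minus the mean of PC3 and DU145) and miR-27b (A498 minus 786O). Since the p53 status of 786O was not settled, only miR-145 set a wild-type line against lines known to be null or mutant. The fit took the 3 differences as independent, although si-CAV2 and miR-27b used the same pair of lines. The mean differences of the 9 genes ran from -0.14 for CDKN1A to 0.34 for ZMAT3. None passed the limma test, in which 0% of all 27812 probes passed, and none of the 9 had an unadjusted p under 0.05, against 1123 of all probes. ZMAT3 showed 0.77 under miR-145, with a ratio nearer 0 in LNCap than in PC3 and DU145, and -0.02 under si-CAV2. MDM2 differed by 0.13 under si-CAV2, 0.42 under miR-145 and 0.08 under miR-27b. CDKN1A differed by 0.04, -0.40 and -0.05.

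The control level of TP53INP1 varied between arrays of a single line. Over 7 PC3 arrays it ran from -4.64 to 0.68, and over 4 arrays of 786O from -3.81 to 2.35. The PC3 range spans both array designs and was -2.225 to 0.68 on the first. Both ends of the 786O range lay on the third slide. Within a line and slide, controls labelled as having no treatment lay above transfection controls by 2.49 in PC3, 3.74 in DU145 and 5.71 in 786O. In 786O the transfection control was not well above background, and for PC3 and DU145 the study's methods describe a vehicle where the labels say no treatment. This comparison was chosen after its values were seen. TP53INP1 was the only one of 9 genes higher by over 1.0 in all 3 lines, against 1.15% of all 26086 probes. Its mean of 3.98 ± 0.67 (SE, n = 3 lines) did not pass the limma test (adjusted p = 0.23), which no probe passed while 4595 had an unadjusted p under 0.05. CDKN1A differed by -0.32, -0.84 and 3.31 in the same lines, and MDM2 by 0.17, 0.25 and 0.04. The transfection controls of PC3 on the second slide lay at 0.62 to 0.68, above the PC3 control without transfection at 0.26, so the order did not hold across slides. Both wild-type lines had transfection controls only, and with those controls alone in all lines the same 4 genes remained highest in LNCap and A498.

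**Figure D4:**
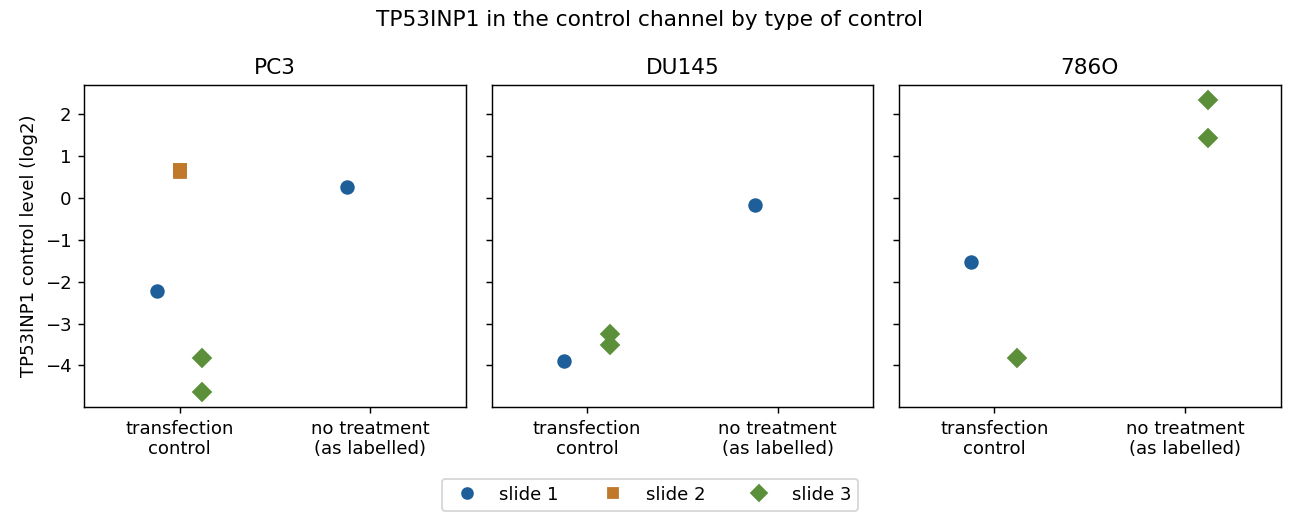
Control level of TP53INP1 (log2 Cy3 signal minus the 75th percentile of the array) in PC3, DU145 and 786O by kind of control, 1 point per array, with colour and shape for the slide. The third slide has another array design, so levels compare only within a slide; in each line the control labelled no treatment lies above the transfection control of its slide.

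The genes whose log2 ratios ran most like those of CDKN1A over the 24 arrays included EBI3 (Pearson r = 0.819), PRPH (0.773), RBCK1 (0.768) and ABI1 (0.755), of 16753 named genes compared. For MDM2 they were RNF24 (0.803), PRO2852 (0.769), HYMAI (0.757), CARD16 (0.734) and C1orf200 (0.733). These are descriptions, since arrays share lines, slides and perhaps controls.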

How the data were processed

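Scanner tables of 24 Agilent arrays were deposited (Agilent Feature Extraction 10.7.3.1, per the labels). The deposited intensity values are raw, background and processed signals per spot. The deposited log10 ratio, Cy5 over Cy3, was already corrected for background and dye by that software, and the series matrix the authors deposited held the same values (largest difference 0). The error per spot that the software gives describes 1 array.

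Here ratios were turned to log2, control and outlier spots were dropped and spots of a probe averaged. Detection of a probe, called well above background in the text, needed a share of 0.5 or more of its spots. R 4.3.3 with limma 3.58.1 was used. The treatment fit took 27787 probes on both designs that were well above background in either channel on at least 3 arrays, with treatments as terms, against 0. Lines served as the replicates. For each probe the spread between lines was estimated jointly over all treatments given to at least 2 lines, and limma drew it towards that of all probes. The SE and p-value of a treatment therefore do not measure the spread of its own lines alone. Levels used the processed Cy3 signal. Adjusted p-values (Benjamini-Hochberg) under 0.05 passed. The fits were tested on simulated data. Depth does not apply to arrays, whose number limits the precision. A probe named MDM2 on the second design only was left out, since the first lists it elsewhere. Named genes were the 9 members, up to 10 genes of 2 lists (46 p53 targets and 12 regulators) that passed in each comparison, and the 5 genes closest to CDKN1A and to MDM2, with transcripts named only by an accession or locus number left out; a gene close to CDKN1A and a line marker are not reported here. The members and lists were chosen with earlier results of these data known. Alternatives covered background correction, centring, filters, probes, slides, lines and arrays left out. Coordinates of probes are those of the files (hg19). Sequences are from RefSeq (GRCh38.p14).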

Additional observations from a re-analysis of the deposited data

Results flagged for a closer look

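TP53INP1 had log2 ratios of opposite sign in the head and neck lines under both treatments they shared. The ratio was -3.08 in SAS and 0.81 in FaDu under wogonin, and -1.29 in SAS and 1.10 in FaDu after si-LAMB3. Each rests on 1 array, and the difference was not tested. The technical error was 0.90 and 0.75 for the FaDu ratios, which were both 0.12 with normexp and loess, and the second probe was not well above background there in either channel. A change in FaDu is therefore not shown. In FaDu the control level of TP53INP1 was the lowest of the 7 lines at -4.30, and both FaDu control channels were not well above background; the part of this in the result was not tested. These were the only such cases among 72 gene and treatment pairs, with a limit of 0.5 in each direction; under genistein TP53INP1 lay just inside it, at 0.50 in PC3 and -1.24 in DU145. No line stood apart by Dixon's test among the 5 lines that are not wild type, in any of the 9 genes.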

How the results depend on the processing

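Of 72 gene and treatment pairs, 7 passed the limma test. The count was 3 where both channels had to be well above background on all 24 arrays, which removes CDKN1A, ZMAT3, SESN1 and TP53INP1 from the test, 2 against the mean of all other treatments and 1 with each design fitted on its own, ZMAT3 under miR-145. Leaving out 1 array of genistein, miR-145 or wogonin, chosen after seeing the data, gave 4 (without miR-145 in PC3) to 8 (without genistein in DU145). Against the other treatments of the slide, TP53I3 under miR-145 reversed to 0.21; miR-27b, which spans slides, was not run there. Of 216 gene and array pairs, 56 passed 0.5 in place of 23 at 1.0, and 7 passed 1.0 after normexp and loess; with both channels well above background, added after seeing the data, 17 did. The count of 4 genes highest in both wild-type lines was 3 after quantile normalization, 5 in the Cy5 channel and on the first slide alone, 4 to 7 with a line left out, 7 without LNCap and 8 on the second design with A498 alone as wild type. The background then was 16.7% and 28.5%, since 1 line more easily lies highest. With both wild-type lines kept and 1 other line left out, 0 genes of the set passed the limma test. Without A498, LNCap alone stood as wild type, and 23.5% of all probes lay highest in it. The SESN1 difference was then 4.82, against 1.67 without LNCap. The TP53I3 difference reversed to -0.88, against up to 2.40 without LNCap. No alternative gave a member a call in the difference in response. No paired analysis was possible because each group holds 1 array and so offers no replicate numbers to block on; the channels of an array are paired in the ratio itself. The cause of the other changes was not tested. Signals near background limit the values of CDKN1A in PC3, ZMAT3 in SAS and TP53INP1 in FaDu. They also limit ZMAT3 in FaDu under wogonin and in PC3 under miR-145, and SESN1 in PC3 under miR-24. For TP53INP1 the same holds in PC3 under miR-143 and si-GOLM1, in DU145 under si-GOLM1 and in 786O under miR-27b.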
